A study of Homo sapiens with 6 samples.

Results

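The genes described here encode the machinery of cyclic AMP (cAMP) signalling. They were chosen by a rule on gene symbols, set with earlier results of these data known. They comprise adenylyl cyclases, phosphodiesterases, protein kinase A with its inhibitors and anchoring proteins, and the CREB family of transcription factors. Heterotrimeric G protein subunits and regulators of G protein signalling (RGS) are also included. The rule found 88 of the 20503 genes in the deposited table. Their RNA was measured in T47D and in T47D-TR, with 3 libraries of each. T47D is a human breast cancer line that the labels call ER-positive, kept in DMEM with 10% fetal bovine serum. T47D-TR is a single subline of it, resistant to tamoxifen and kept with 1 µM 4-hydroxytamoxifen, the active metabolite of that drug. The subline and the drug changed together, so their effects cannot be told apart. The labels do not say whether replicate libraries stem from independent cultures, and p-values therefore measure only the spread between these libraries, which may be technical.

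In this pathway a ligand-bound receptor activates a G protein, whose alpha subunit leaves its beta-gamma partner. Gs-class alpha subunits stimulate adenylyl cyclase and Gi-class subunits inhibit it, while RGS proteins speed the return to the inactive state. The cAMP made by cyclases is broken down by phosphodiesterases. It binds the regulatory subunits of protein kinase A, which then release the catalytic subunits, and these phosphorylate targets such as the transcription factor CREB. Inhibitor peptides of the PKI family bind free catalytic subunits, and anchoring proteins (AKAPs) hold the kinase at particular sites in the cell. In breast epithelial lines, cAMP is known for its crosstalk with oestrogen receptor signalling.

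The libraries held 17199315 to 19867230 counts each, and 3 counts corresponded to 0.153 to 0.178 CPM (counts scaled to a common library total) in a single library. ESR1, which encodes oestrogen receptor alpha, had 3, 0 and 2 counts in T47D and 2, 4 and 3 in T47D-TR, so the RNA of both groups goes against the ER-positive label. The 8 luminal markers listed summed to 2045 to 2126 CPM in T47D and 2405 to 2816 in T47D-TR, most of it KRT8 and KRT18. Within that sum EPCAM fell from 38.6 ± 0.587 CPM (SD, n = 3) to 14.7 ± 2.25 and GATA3 from 1.23 ± 0.140 to 0.625 ± 0.0774. KRT8, KRT18, KRT19, FOXA1 and CDH1 rose, FOXA1 and CDH1 from low levels. Mean FOXA1 was 5.6 CPM in T47D and 10.7 in T47D-TR, and mean CDH1 was 2.1 and 5.5. The summed level of 6 mesenchymal or basal markers was 1602 to 1628 CPM in T47D and 2298 to 2406 in T47D-TR. Most of it came from VIM, CD44 and CAV1, with means of 770, 488 and 319 CPM in T47D and 1297, 721 and 304 in T47D-TR. In T47D these levels stood beside low GATA3, FOXA1 and CDH1, while KRT8 and KRT18 had means of 1338 and 683 CPM. The marker levels thus leave more than ESR1 to weigh against the label, and the identity of the line was not tested. KRT14 was at 0 in T47D and had 2, 1 and 15 counts in T47D-TR. The 5 fibroblast markers summed to 36.4 to 39.8 CPM in T47D and 20.3 to 24.6 in T47D-TR. Within that sum LUM fell from 269, 232 and 286 counts to 6, 3 and 5. COL1A2 and DCN were at 0 in T47D. In T47D-TR they had 0, 0 and 22 counts and 4, 0 and 19, most of them in replicate 3. The 4 immune markers summed to 23.4 to 26.9 CPM and 57.0 to 75.4. Of the 3 endothelial markers 2 were in the table and rose from 0.665 to 0.804 CPM to 23.5 to 31.1, through PECAM1, while VWF stayed at 0 to 4 counts in every library. The part of these differences in the results below was not tested. In such bulk libraries, fewer cells of a type and less RNA per cell cannot be told apart. T47D-TR replicate 3 was the lowest library of its group for 44 of the 76 tested members, and counts of calls that change without it are given with and without it.

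Of the 88 members, 76 had enough counts to be tested with edgeR's quasi-likelihood test, and 31 were higher and 21 lower in T47D-TR at a Benjamini-Hochberg adjusted p under 0.05 over all tested genes. The background was similar: 63.0% of all 15961 tested genes were called, 32.5% as higher and 30.5% as lower. Of the called members, 9 were at least 2-fold higher and 5 at least 2-fold lower, and among all tested genes 10.1% and 3.87% passed these bounds. The libraries of the 2 groups did not overlap for 58 members, against 68.3% of all tested genes. The median log2 fold change of the members was 0.09, beside 0.00 over all tested genes, and the median of its size was 0.40 beside 0.36. Members as a whole thus moved about as often as other genes, and the description below concerns which of them moved. Counts of calls by role or list are to be read beside the 32.5% and 30.5% of all tested genes. Those without T47D-TR replicate 3 are to be read beside 33.3% and 32.0%. Without T47D-TR replicate 3, 33 members were higher and 22 lower, 6 of the latter at least 2-fold as AKAP3 then passed the filter, and 33.3% and 32.0% of all genes tested then were called in those directions. AKAP3 passed that filter only through T47D, so its call is no support for a fall. The 12 untested members were ADCY10, AKAP3, GNA15, PDE11A, PDE1A, PDE3A, PDE4B, PDE6A, PDE6C, RGS11, RGS4 and RGS9, each with 2 to 50 counts over all 6 libraries. Members near 0 in one group passed the count filter only through the other group and had to differ, so these counts describe the tested genes and not all 88.

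**Figure D1:**
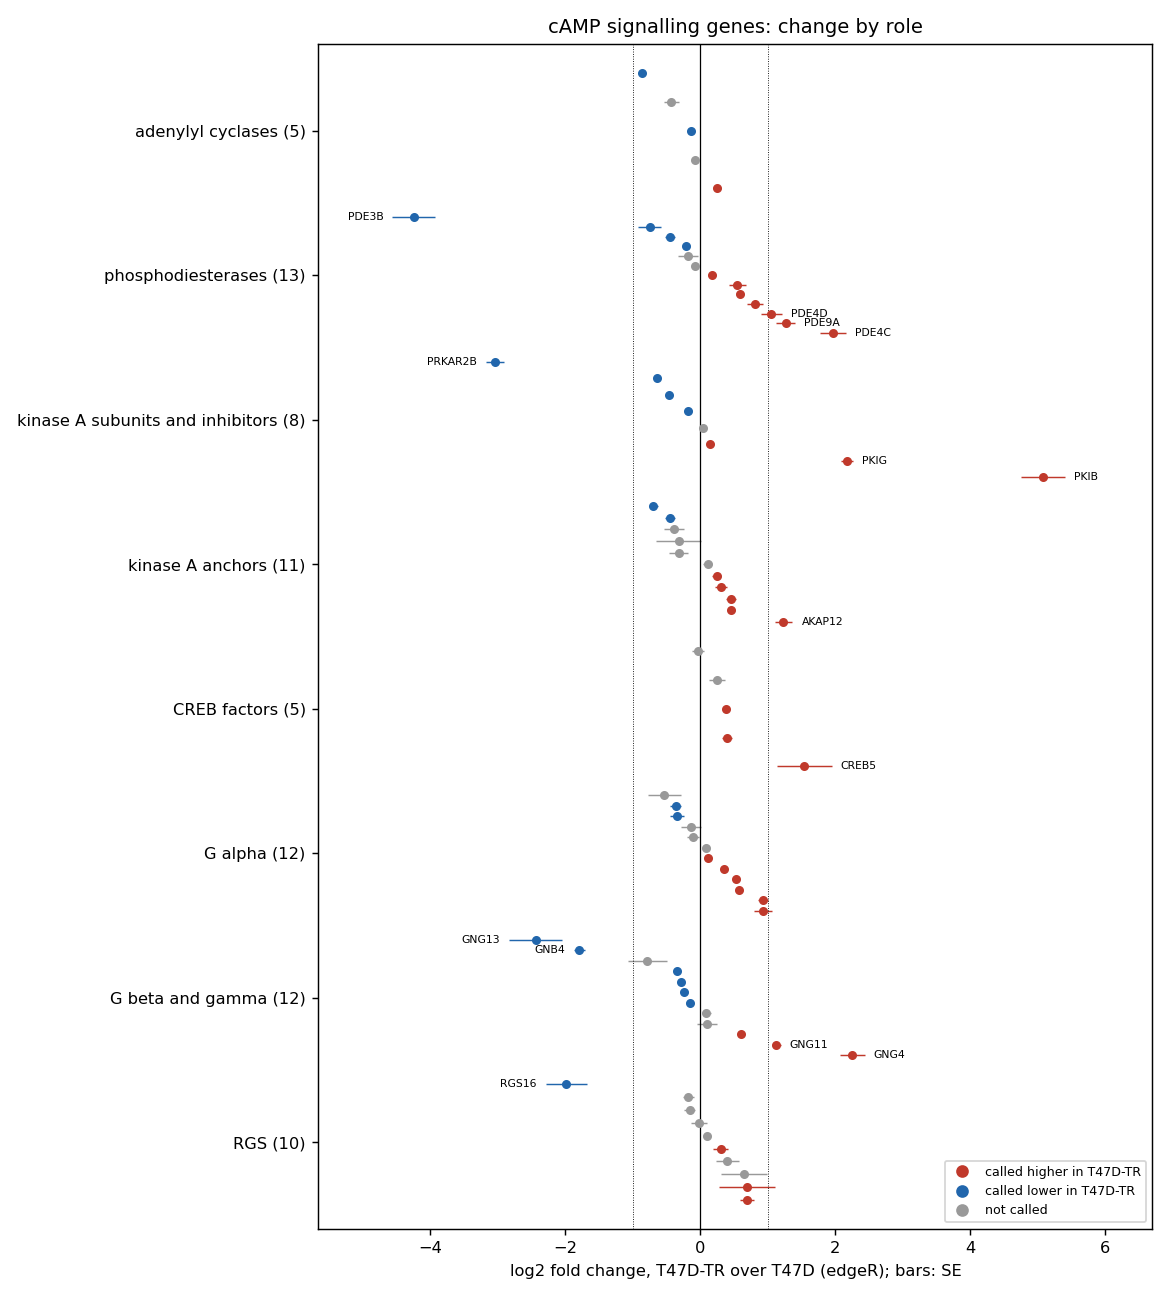
Log2 fold change of T47D-TR over T47D from edgeR for the 76 tested members, in rows by role with the number tested in brackets; points are genes, bars are standard errors, dotted lines mark a 2-fold change and called genes beyond them are named. Most members sit within 2-fold of 0, with PKIB at 5.08, PKIG at 2.18 and GNG4 at 2.26 to the right and PDE3B at -4.25, PRKAR2B at -3.04 and GNG13 at -2.44 to the left.

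Adenylyl cyclases, which make cAMP from ATP, changed little except for ADCY9, which fell. ADCY9 stood at 70.2, 71.1 and 68.7 CPM in T47D and at 39.8, 39.4 and 35.9 in T47D-TR, and all T47D-TR libraries lay below all T47D libraries. The log2 fold change was -0.87 ± 0.05 (SE) and the adjusted p 6.50e-08 by edgeR. ADCY6, an isoform inhibited by calcium, rose from 65.0 ± 4.02 CPM (SD, n = 3) to 77.1 ± 2.31, a log2 fold change of 0.25 with an edgeR adjusted p of 0.00213. ADCY3, the most counted cyclase and one responsive to calcium and calmodulin, was at 83.4 ± 2.35 CPM (SD, n = 3) in T47D and 79.3 ± 1.57 in T47D-TR, and this difference missed the threshold (edgeR adjusted p = 0.202). Of the 5 tested cyclases 1 rose, 2 fell and 2 were not called, against 32.5% higher and 30.5% lower of all tested genes. The other call, ADCY7 with a log2 fold change of -0.13, was lost when any 1 of the 6 libraries was left out, and in GENCODE 41.6% of the exon bases of ADCY7 are shared with BRD7 on the opposite strand, which unstranded counting would not separate. On a scale of CPM per kilobase of transcript, the 6 cyclases summed to 44.3 ± 0.831 (SD, n = 3) in T47D and 40.5 ± 1.09 in T47D-TR. ADCY9 made up 20.5% of that sum in T47D and 12.3% in T47D-TR, while the share of ADCY6 was 22.7% and 29.5%.

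Phosphodiesterase genes split, with PDE3B falling the most of all members and PDE4C, PDE9A and PDE4D rising at least 2-fold. PDE3B encodes an enzyme that degrades cAMP and is inhibited by cGMP, known for its part in insulin action in fat and liver. Its counts were 75, 89 and 75 in T47D and 7, 3 and 2 in T47D-TR, so that every T47D-TR library was far below every T47D library. The level was 4.20 ± 0.302 CPM (SD, n = 3) and 0.211 ± 0.132, a 19.0-fold lower value in T47D-TR, with a log2 fold change of -4.25 ± 0.32 (SE) and an edgeR adjusted p of 1.32e-07. PDE3B passed the count filter only through T47D, so it had to differ and this p adds no support. Most of the counts left in T47D-TR were in replicate 1, and without that library the log2 fold change of PDE3B was -4.87. The gene lies on chromosome 11 (14643804 to 14899321) in GRCh38.p14. PDE3A, its only close relative, had 0 counts in 5 libraries and 2 in T47D-TR replicate 3.

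Among the PDE4 genes, which encode cAMP-specific enzymes, PDE4D and PDE4C rose and PDE4A fell slightly. PDE4D counts were 375, 353 and 407 in T47D and 776, 962 and 596 in T47D-TR, without overlap. The log2 fold change was 1.06 ± 0.16 (SE), with an edgeR adjusted p of 4.27e-06. PDE4C rose from 8, 11 and 10 counts to 44, 43 and 26, a 3.91-fold change on a low level of 0.510 ± 0.0697 CPM (SD, n = 3) in T47D, with an edgeR adjusted p of 6.54e-05. The T47D libraries alone would not have passed the count filter, which PDE4C passed through T47D-TR, so this p adds no support. In GENCODE 70.7% of the exon bases of PDE4C are shared with the gene model AC008397.2 on the same strand, so its counts are uncertain. PDE4A had a log2 fold change of -0.20 ± 0.05 (SE) and an edgeR adjusted p of 0.0153, a call lost when T47D replicate 2 or T47D-TR replicate 2 was left out. PDE4B, untested, had 9, 10 and 9 counts in T47D and 0, 3 and 7 in T47D-TR.

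PDE9A, specific for cGMP, rose from 116, 99 and 120 counts to 276, 309 and 211, again without overlap. Its log2 fold change was 1.27 ± 0.14 (SE), with an edgeR adjusted p of 2.35e-06. PDE2A, which degrades both nucleotides and is stimulated by cGMP, was the phosphodiesterase with the most counts, at 141, 144 and 138 CPM in T47D and 151, 154 and 173 in T47D-TR. All T47D-TR libraries lay above T47D, but the change was small, 0.17 ± 0.06 (SE) in log2 with an edgeR adjusted p of 0.0148, and it was lost without T47D replicate 3 (log2 0.16, adjusted p 0.0647). By known substrate, the tested cAMP-specific genes comprised PDE4C, PDE4D and PDE7A, which rose, PDE4A and PDE8A, which fell, and PDE7B and PDE8B, which were not called. Of those accepting both nucleotides, PDE2A and PDE10A rose and PDE3B fell. Of the cGMP-specific ones, PDE9A rose and PDE5A fell. PDE6D, a carrier of prenylated proteins despite its name, rose with a log2 fold change of 0.55. Of the 13 tested phosphodiesterase genes, 7 thus rose, 4 fell and 2 were not called, counts that were the same without T47D-TR replicate 3. The shares over all tested genes were 32.5% higher and 30.5% lower.

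**Figure D2:**
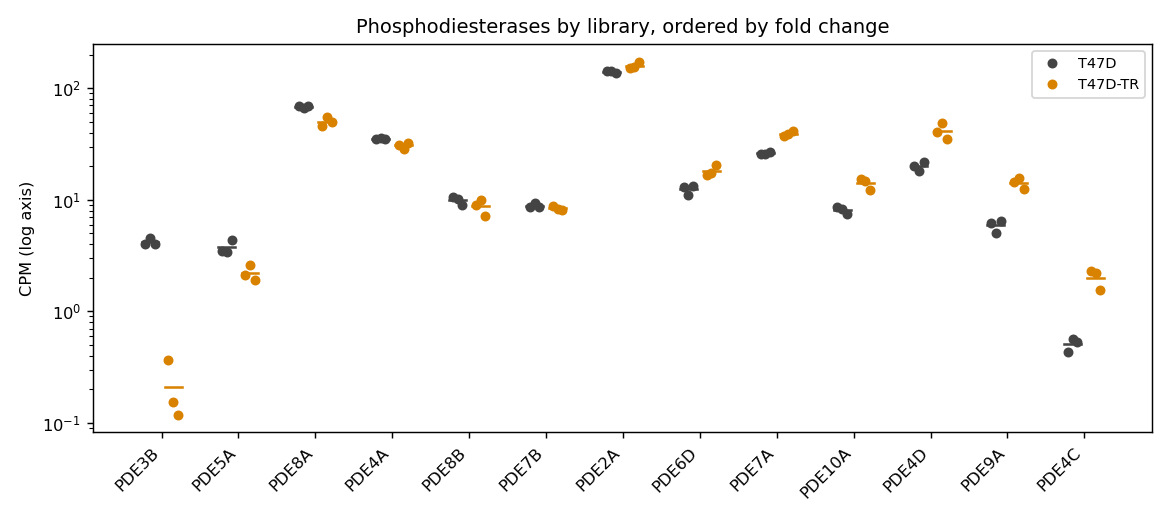
CPM on a log axis for the 13 tested phosphodiesterase genes in each library (points; bars are group means, n = 3), with genes ordered from the lowest to the highest fold change and T47D beside T47D-TR. PDE3B is between 4.02 and 4.55 CPM in T47D and at 0.363 or below in T47D-TR, and PDE4C, PDE9A and PDE4D are higher in all T47D-TR libraries than in any T47D library.

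Within protein kinase A, all 4 regulatory subunit genes fell, the main catalytic subunit gene did not pass the test, and both PKI genes in the table rose. Of all tested genes, 30.5% were called lower and 32.5% higher. PRKAR2B, the type II beta regulatory subunit, had 48, 54 and 43 counts in T47D and 7, 6 and 4 in T47D-TR. Every T47D-TR library was far below T47D, the fold was 8.22 and the log2 fold change was -3.04 ± 0.13 (SE) with an edgeR adjusted p of 1.42e-06. PRKAR2B passed the count filter only through T47D, so it had to differ and this p adds no support. PRKAR2A, the most counted gene of this group, was at 253, 252 and 246 CPM in T47D and 191, 183 and 174 in T47D-TR, with a log2 fold change of -0.46 ± 0.04 (SE) and an edgeR adjusted p of 2.20e-06. For the type I subunits, PRKAR1B was at 76.7, 74.8 and 76.0 CPM in T47D and 50.4, 49.0 and 46.5 in T47D-TR, a log2 fold change of -0.64. PRKAR1A had the smallest change of the 4, from 222 ± 2.24 CPM (SD, n = 3) to 197 ± 11.2, a log2 fold change of -0.18 with an edgeR adjusted p of 0.00624. For none of the 4 genes did the groups overlap, and the 4 calls held in every alternative in which the gene was tested, PRKAR2B being too low for the filter at a mean of 5 CPM. PRKAR2B lies on chromosome 7 (107044705 to 107161811).

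The catalytic subunit genes moved less than the regulatory ones. PRKACA, encoding the alpha subunit, was at 95.8, 97.9 and 92.7 CPM in T47D and 95.9, 101 and 97.5 in T47D-TR, and the groups overlapped. Its log2 fold change was 0.04 ± 0.03 (SE), with an edgeR adjusted p of 0.507. PRKACB, encoding the beta subunit, was at 51.0 ± 0.0949 CPM (SD, n = 3) and 56.4 ± 2.22, a call with log2 0.14 and an edgeR adjusted p of 0.0307. That call was lost without T47D-TR replicate 3 (adjusted p = 0.0509), when any of 4 other libraries was left out, and under several of the scalings and tools, where its log2 fold change was 0.11 to 0.14.

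PKIB and PKIG encode peptides that occupy the substrate site of the free catalytic subunit and block it. PKIB was nearly absent from T47D, with 1, 4 and 3 counts, and had 112, 101 and 67 in T47D-TR. The level was 0.140 ± 0.0775 CPM (SD, n = 3) and 4.97 ± 0.932, a 33.9-fold change that was the largest rise among the members, with log2 5.08 ± 0.32 (SE) and an edgeR adjusted p of 7.05e-08. PKIB passed the count filter only through T47D-TR, so it had to differ and this p adds no support. PKIG had 25, 25 and 27 counts in T47D and 118, 132 and 95 in T47D-TR, a 4.53-fold rise with log2 2.18 ± 0.09 (SE) and an edgeR adjusted p of 2.68e-07. Neither gene's groups overlapped, and both stayed at modest levels beside the catalytic subunits. PKIB lies on chromosome 6 (122471921 to 122726373), where 13.2% of its exon bases are shared with an unclassified model on the same strand, and PKIG on chromosome 20 (44531875 to 44619037). On the scale of CPM per kilobase, summed PKI genes over summed catalytic genes came to 0.0210 ± 0.00175 (SD, n = 3) in T47D and 0.140 ± 0.0168 in T47D-TR. Summed regulatory over summed catalytic genes came to 2.56 ± 0.0452 in T47D and 1.89 ± 0.0822 in T47D-TR. For both ratios the libraries of the 2 groups did not overlap, and no test was made of them because they were formed after the values were known. They compare RNA and not protein, and they depend on the transcript lengths used.

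**Figure D3:**
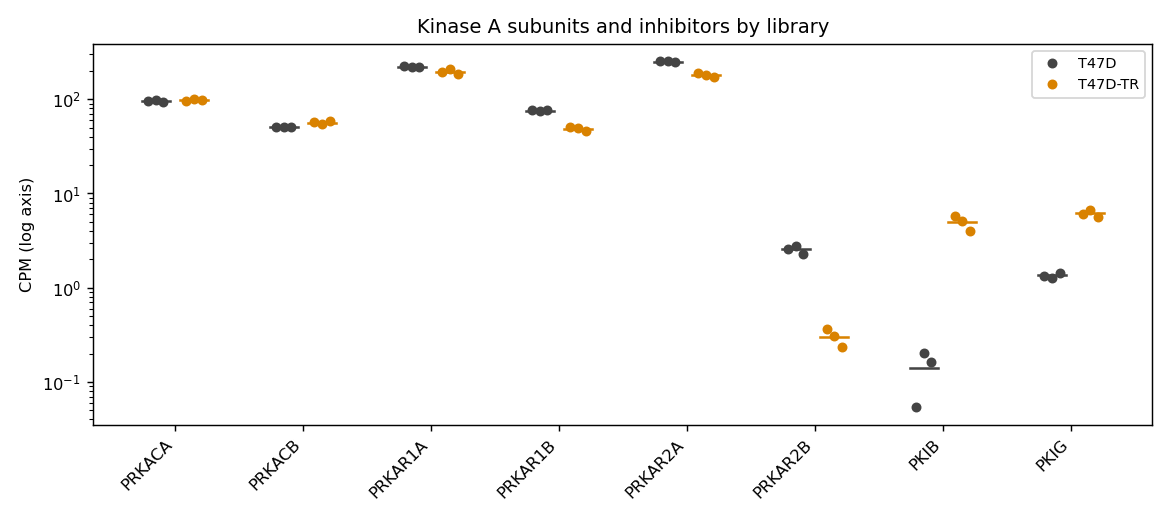
CPM on a log axis of the 8 genes for protein kinase A subunits and PKI inhibitors in each library (points; bars are group means, n = 3), T47D beside T47D-TR. The catalytic genes PRKACA and PRKACB sit at nearly the same height in both groups, the 4 PRKAR genes are lower in T47D-TR, and PKIB goes from at most 0.205 CPM in T47D to at least 3.97 in T47D-TR.

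Promoter sequence is shown for the extremes of this group, PKIB and PRKAR2B, and for PRKAR1A because 1 of its windows holds the cAMP response element TGACGTCA, the palindromic site that CREB binds. The sequences are from RefSeq (GRCh38.p14), read 5′ to 3′ along the gene and upstream of an annotated start. Capitals mark TGACGTCA or its shorter form TGACG, on either strand (CGTCA), and the stretches of PKIB and PRKAR2B are free of annotated exons. Of PRKAR1A only the element with 11 bases on each side is given, since it lies in an exon of a transcript that starts farther upstream.
PKIB, chr6:122471823-122471916, + strand: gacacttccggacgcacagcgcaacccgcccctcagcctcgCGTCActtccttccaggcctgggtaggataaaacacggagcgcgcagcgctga
PRKAR2B, chr7:107044455-107044648, + strand: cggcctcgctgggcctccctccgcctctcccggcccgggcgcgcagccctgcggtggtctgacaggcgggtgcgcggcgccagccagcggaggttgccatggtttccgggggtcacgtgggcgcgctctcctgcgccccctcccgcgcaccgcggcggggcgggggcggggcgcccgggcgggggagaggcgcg
PRKAR1A, chr17:68512370-68512399, + strand: gcgaggcgcatTGACGTCAgtagccgaacg
The element in PRKAR1A begins 49 bases before 1 of the 5 starts of that gene and was not found before the others. The stretch shown for PKIB, from 1 of its 3 starts, holds 1 CGTCA and no full element, and that of PRKAR2B, which has 1 start in the table, holds neither form. A match of letters is a description and does not show binding.

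Anchoring proteins moved both ways, with AKAP12 and AKAP1 at the ends. AKAP12 (gravin), a scaffold that ties the kinase to membrane receptors, was at 23.8, 20.4 and 21.4 CPM in T47D and 55.0, 55.4 and 43.5 in T47D-TR. All T47D-TR libraries were above T47D, by 2.35-fold, with log2 1.23 ± 0.13 (SE) and an edgeR adjusted p of 2.98e-07. AKAP1, which docks the kinase at the outer mitochondrial membrane and was the most counted anchor, stood at 180.3 ± 0.958 CPM (SD, n = 3) in T47D and 112 ± 9.22 in T47D-TR. Its log2 fold change was -0.69 ± 0.07 (SE), with an edgeR adjusted p of 4.65e-07. Of 11 tested anchors, 5 rose (AKAP2, AKAP10, AKAP11, AKAP12 and AKAP13), 2 fell (AKAP1 and AKAP8, a nuclear anchor) and 4 were not called. Over all tested genes, 32.5% were called higher and 30.5% lower. AKAP13 and AKAP10 each had log2 0.46, and AKAP8 had -0.45. AKAP2 shares 85.8% of its exon bases with the readthrough model PALM2-AKAP2, and its counts are uncertain. Without T47D-TR replicate 3, 6 of 12 anchors rose and 3 fell. The falls then included AKAP3, which had 5, 10 and 10 counts in T47D and 2, 3 and 5 in T47D-TR. Its T47D-TR replicate 3 lay within the T47D range in CPM. AKAP3 then passed the filter only through T47D, so the call is no support for a fall.

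CREB-family factors, the nuclear end of the pathway, included 3 genes of 5 that rose and none that fell. Over all tested genes 63.0% were called, 32.5% as higher and 30.5% as lower. ATF1, a close relative of CREB1 and the most counted of the 5, was at 73.3, 80.9 and 80.6 CPM in T47D and 103, 110.3 and 95.7 in T47D-TR. The groups did not overlap, and log2 was 0.39 ± 0.08 (SE) with an edgeR adjusted p of 0.000121. CREB1 itself was at 49.2 ± 1.68 CPM (SD, n = 3) and 63.8 ± 2.38, log2 0.38 with an edgeR adjusted p of 6.39e-05. CREB5, a relative of ATF2 present at low level, had 32, 14 and 17 counts in T47D and 57, 51 and 72 in T47D-TR, log2 1.54 ± 0.40 (SE) with an edgeR adjusted p of 0.000748. CREM, whose gene yields both activators and repressors, and CREB3, a membrane-bound factor, were not called, at log2 0.25 and -0.03.

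The full response element was sought in the 250 bases before every annotated start of the members, on both strands. Sequences were found for 75 of the 88 members, with 181 starts. TGACGTCA was present before 4 of them, 2.21%, against 1.65% of 35116 starts of all genes in the RefSeq table. The short form TGACG was present before 39 starts, 21.5%, against 21.2% of all. Counted per gene, with a gene included when any of its starts had the motif, the full element was found in 5.33% of the 75 members and 2.03% of all 27305 genes, and the short form in 40% and 24.9%. Members had 181 starts for 75 genes and all genes 35116 for 27305, so a member offered more windows in which a motif could be found. By call, the full element was found before 1.61% of the starts of members that rose, 2.38% of those that fell and 3.92% of those not called. The genes with it were PRKAR1A, shown above, GNAO1, PDE7B and 1 of the 7 starts of CREM. They are printed to show the site in its context, with the element in capitals and, for GNAO1, where an annotated exon begins within it, 11 bases on each side.
GNAO1, chr16:56191330-56191359, + strand: cgcggccctgcTGACGTCAgctggcggccc
PDE7B, chr6:135851451-135851695, + strand: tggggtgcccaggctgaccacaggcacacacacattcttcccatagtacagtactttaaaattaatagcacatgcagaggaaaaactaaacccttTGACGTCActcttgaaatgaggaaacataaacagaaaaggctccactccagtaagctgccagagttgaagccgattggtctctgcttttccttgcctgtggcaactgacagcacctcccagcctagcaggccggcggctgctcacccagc
CREM, chr10:35195652-35195864, + strand: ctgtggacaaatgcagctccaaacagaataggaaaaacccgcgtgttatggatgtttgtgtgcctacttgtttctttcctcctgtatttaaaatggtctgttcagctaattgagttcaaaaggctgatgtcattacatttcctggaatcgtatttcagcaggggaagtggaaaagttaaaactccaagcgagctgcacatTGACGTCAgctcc
The element lies 148 bases before the start in GNAO1, 155 in PDE7B and 50 in CREM. GNAO1 rose, PRKAR1A fell, and PDE7B and CREM were not called, so the 4 genes did not share a direction.

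Among G protein alpha subunits, GNAS and several Gi-class genes rose. GNAS encodes the stimulatory alpha subunit that activates adenylyl cyclase and had the most counts of all members. It was at 671, 687 and 686 CPM in T47D and 953, 965 and 1037 in T47D-TR, with every T47D-TR library above T47D. The rise was 1.45-fold, log2 0.53 ± 0.04 (SE), with an edgeR adjusted p of 2.21e-07. GNAS lies on chromosome 20 (58839748 to 58911192) in an imprinted locus with several promoters, and a count per gene does not separate their products. GNAL, the olfactory counterpart of GNAS, fell from 44.1 ± 1.92 CPM (SD, n = 3) to 34.2 ± 3.13, log2 -0.36 ± 0.09 (SE) with an edgeR adjusted p of 0.000819. In GENCODE 26.8% of GNAL exon bases are shared with MPPE1 on the other strand.

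Of the inhibitory class, GNAO1 and GNAZ changed the most. GNAO1, best known from neurons, had 104, 124 and 104 counts in T47D and 212, 190 and 219 in T47D-TR, log2 0.94 ± 0.14 (SE) with an edgeR adjusted p of 4.38e-05. GNAZ, which encodes a form insensitive to pertussis toxin, was at 14.6 ± 0.804 CPM (SD, n = 3) and 27.9 ± 2.06, log2 0.93. The widely expressed GNAI2 was at 187, 189 and 184 CPM and 242, 235 and 240.2, log2 0.36 without overlap. GNAI3 was called at log2 0.11, a call lost in all leave-one-out fits except that without T47D-TR replicate 3, and GNAI1 (-0.13) and GNAT2 (-0.53) were not called. GNAT2 shares 97.0% of its exon bases with GNAI3 on the other strand. Of the other classes, GNA12 rose with log2 0.57 and GNA11, which activates phospholipase C, fell with log2 -0.34, while GNA13 and GNAQ were not called. In all, 6 of 12 tested alpha subunits rose and 2 fell, and without T47D-TR replicate 3 GNAQ was called too, giving 7 and 2. Of all tested genes, 32.5% were called higher and 30.5% lower. Per kilobase, GNAS made up 65.9% ± 0.517 (SD, n = 3) of the summed alpha subunits in T47D and 70.6% ± 1.33 in T47D-TR, and GNAI2 14.5% ± 0.159 and 13.7% ± 0.421. GNAI3 enters that sum with a 27174-base transcript and is understated in it.

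The beta and gamma subunits, which form the obligate partner of the alpha subunit, included both strong falls and strong rises. GNB4 had 1914, 1950 and 1859 counts in T47D and 507, 582 and 533 in T47D-TR. Its level dropped from 101 ± 1.95 CPM (SD, n = 3) to 29.2 ± 2.67, 3.46-fold, with log2 -1.79 ± 0.08 (SE) and an edgeR adjusted p of 3.26e-10, the lowest of all members. GNB4 lies on chromosome 3 (179396088 to 179527798), and 27.6% of its exon bases are shared with an antisense model. GNB1, the most counted beta subunit, was at 384, 381 and 387 CPM in T47D and 302, 301 and 303 in T47D-TR, log2 -0.35 ± 0.01 (SE) with an edgeR adjusted p of 4.20e-06. GNB2 also fell, with log2 -0.24. GNB5, an atypical beta subunit that pairs with RGS proteins of the R7 class, rose from 14.9 ± 0.404 CPM (SD, n = 3) to 22.7 ± 0.193, log2 0.61. GNB3 was not called. Per kilobase, GNB4 made up 8.30% ± 0.129 (SD, n = 3) of the summed beta subunits in T47D and 3.12% ± 0.297 in T47D-TR, and the sum itself was 189 ± 1.79 and 145 ± 1.34.

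Gamma subunits carry the lipid anchor of the pair. GNG4 had 116, 100 and 82 counts in T47D and 479, 560 and 368 in T47D-TR, a 4.78-fold rise with log2 2.26 ± 0.18 (SE) and an edgeR adjusted p of 2.72e-08. GNG11 was at 13.9, 14.3 and 13.2 CPM in T47D and 28.1, 32.3 and 30.0 in T47D-TR, log2 1.12 ± 0.07 (SE) with an edgeR adjusted p of 1.15e-07. Both were higher in every T47D-TR library than in any T47D library. GNG13, known from taste cells, went the other way, from 27, 25 and 27 counts to 8, 2 and 4. Its log2 fold change was -2.44 ± 0.40 (SE), with an edgeR adjusted p of 0.000137, and without T47D-TR replicate 1 it was -3.03. GNG13 passed the count filter only through T47D, so it had to differ and this p adds no support. In GENCODE 19.6% of GNG13 exon bases are shared with CHTF18 on the other strand. The well-expressed GNG5 and GNG12 fell by smaller amounts, log2 -0.28 and -0.15, the latter call being lost without T47D replicate 1, and GNG3 and GNG10 were not called. GNG5 held 56.7% ± 0.374 (SD, n = 3) of the summed gamma subunits per kilobase in T47D and 50.7% ± 2.29 in T47D-TR, against 0.582% ± 0.105 and 3.02% ± 0.411 for GNG4. These shares are uncertain, because 30.9% of GNG5 exon bases are shared with the model AL359762.3 on the same strand. For GNG10, in the same sum, 73.1% are shared with the same-strand model DNAJC25-GNG10. Of the 12 beta and gamma genes tested, 3 rose, 6 fell and 3 were not called, and without T47D-TR replicate 3 GNG3 was called lower, giving 3 and 7. Of GNG3 exon bases, 50.7% are shared with BSCL2 on the other strand. The shares over all tested genes were 32.5% higher and 30.5% lower.

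**Figure D4:**
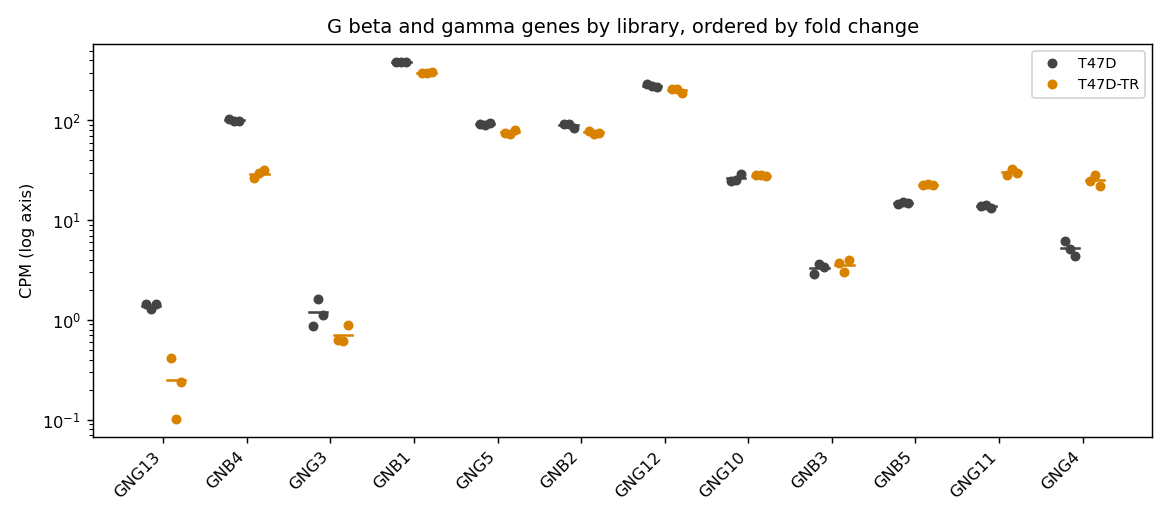
CPM on a log axis of the 12 G protein beta and gamma subunit genes in each library (points; bars are group means, n = 3), with genes ordered from the lowest to the highest fold change and T47D beside T47D-TR. GNG13 and GNB4 are lower and GNB5, GNG11 and GNG4 higher in all T47D-TR libraries, while GNB1, at 381 to 387 CPM in T47D and 301 to 303 in T47D-TR, moved by a small amount with little spread.

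RGS proteins accelerate GTP hydrolysis by alpha subunits, and most of their genes did not pass the test. RGS16 fell, from 156, 159 and 132 counts in T47D to 28, 33 and 49 in T47D-TR, with T47D-TR replicate 3 the highest of its group. The level was 7.87 ± 0.701 CPM (SD, n = 3) and 2.01 ± 0.779, log2 -1.99 ± 0.30 (SE) with an edgeR adjusted p of 3.67e-06. RGS14, a scaffold that also binds Gi-class subunits in their inactive form, rose from 77, 73 and 65 counts to 131, 118 and 94, log2 0.70 ± 0.11 (SE) with an edgeR adjusted p of 0.000985. RGS19, the most counted of the family, was at 16.5, 16.8 and 17.4 CPM in T47D and 24.1, 19.8 and 18.8 in T47D-TR. Its call, log2 0.31 ± 0.11 (SE) with an edgeR adjusted p of 0.0142, was lost when T47D replicate 1 was left out (adjusted p = 0.0571), and likewise for T47D-TR replicate 1 (adjusted p = 0.0792). RGS2, which acts mainly on Gq-class subunits, had 89, 111 and 128 counts in T47D and 214, 230 and 84 in T47D-TR, so that T47D-TR replicate 3 lay within the T47D range in CPM and the groups overlapped. It was called at log2 0.69 ± 0.42 (SE), with an edgeR adjusted p of 0.0300, and at log2 0.98 with an adjusted p of 4.83e-08 without that library. Leaving out T47D replicate 1 or 2 or T47D-TR replicate 1 or 2 lost the call, with adjusted p of 0.0811 to 0.132. RGS4 was listed with 0, 0 and 1 counts in T47D and 9, 1 and 9 in T47D-TR and was not tested. Of 10 tested RGS genes, 3 rose, 1 fell and 6 were not called, and without T47D-TR replicate 3 RGS5 was called higher, giving 4 and 1. All tested genes gave 32.5% higher and 30.5% lower, and 33.3% and 32.0% without that library.

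The members were read beside other genes of the pathway, taken from lists of receptors, regulators, effectors and targets. These lists were chosen with earlier results of these data known. Their counts and medians beside all tested genes are therefore a description and not a test. Receptors and ligands of Gs and Gi signalling rose more often than they fell: of 23 tested from 38 listed, 15 rose and 3 fell, 5 did not pass the test, and the median log2 fold change was 0.70 beside 0.00 over all tested genes. Of these 8 rose and 1 fell at least 2-fold. Over all tested genes, 32.5% were called higher, 30.5% lower, 10.1% at least 2-fold higher and 3.87% at least 2-fold lower. Without T47D-TR replicate 3, 14 of 24 rose and 3 fell. GPER1, a G protein-coupled receptor described as responding to oestrogen, had 104, 105 and 100 counts in T47D and 36, 37 and 37 in T47D-TR, log2 -1.46 ± 0.08 (SE) with an edgeR adjusted p of 4.58e-06. ADRA2C, an adrenergic receptor coupled to Gi, had 62, 77 and 66 counts and 42, 52 and 30, log2 -0.70 ± 0.17 (SE). GPR3, a receptor that activates Gs without added ligand, had 29, 20 and 18 counts and 107, 142 and 66, log2 2.24 ± 0.32 (SE) with an edgeR adjusted p of 1.10e-05. S1PR5, a sphingosine 1-phosphate receptor, had 5, 1 and 3 counts in T47D and 85, 50 and 50 in T47D-TR, log2 4.33 ± 0.44 (SE) with an edgeR adjusted p of 1.63e-06. S1PR5 passed the count filter only through T47D-TR, so it had to differ and this p adds no support. For each of these 4 receptors the groups did not overlap.

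Receptor kinases, arrestins and regulators of the G protein cycle were balanced, with 7 of 20 tested genes higher, 7 lower and 6 not called. Their median log2 fold change was 0.06, and 32.5% of all tested genes were called higher and 30.5% lower. PLCB3 and PLCB2 encode phospholipase C beta enzymes, effectors of Gq and beta-gamma. PLCB3 was at 56.0, 59.3 and 59.7 CPM in T47D and 104, 107 and 103 in T47D-TR, log2 0.84 ± 0.03 (SE). PLCB2 had 35, 45 and 39 counts and 14, 8 and 15, log2 -1.64 ± 0.30 (SE). It passed the count filter only through T47D, so its call adds no support for a fall. The receptor kinases moved apart: GRK5 rose, log2 0.56 with an edgeR adjusted p of 6.26e-05, and ADRBK2 (GRK3) fell, log2 -0.62 with an edgeR adjusted p of 1.68e-05.

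Effectors other than protein kinase A, and coactivators of CREB, gave 9 higher, 3 lower and 8 not called of 20 tested, with a median of 0.12 and no called change of 2-fold. All tested genes gave 32.5% higher and 30.5% lower, and 33.3% and 32.0% without T47D-TR replicate 3. Without T47D-TR replicate 3, 10 of 21 rose and 5 fell, with CRTC1 and RAP1B called lower as well. The 10 include CNGB1, which was not tested with all libraries and had 4, 6 and 8 counts in T47D and 22, 19 and 7 in T47D-TR. Its T47D-TR replicate 3 lay within the T47D range in CPM. CNGB1 passed the filter and was called, at log2 1.71, without that library, so the call is no support for a rise. ABCC4, a transporter that exports cAMP, fell from 86.8 ± 1.95 CPM (SD, n = 3) to 53.9 ± 3.54, log2 -0.69 with an edgeR adjusted p of 4.89e-07. CREBBP, the acetyltransferase that binds phosphorylated CREB, was at 168, 162 and 154 CPM in T47D and 112, 112 and 128 in T47D-TR, log2 -0.46 with an edgeR adjusted p of 2.11e-05. The channel gene HCN2 and the Popeye-domain gene POPDC3, whose products bind cAMP directly, rose with log2 0.81 and 0.85.

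Of genes known as CREB targets, many of which are also induced through other pathways, 10 of 19 tested rose, none fell and 9 were not called. The median log2 fold change was 0.71, beside 0.00 over all tested genes, and 6 rose at least 2-fold. Among all tested genes 32.5% were called higher, 30.5% lower and 10.1% at least 2-fold higher. Because the list was chosen with earlier results of these data known, its difference from these shares is no independent support. AREG, the EGF receptor ligand amphiregulin, had 81, 90 and 77 counts in T47D and 3709, 4987 and 1950 in T47D-TR, log2 5.42 ± 0.34 (SE) with an edgeR adjusted p of 7.63e-09. FOS had 22, 19 and 23 counts and 216, 319 and 90, log2 3.28 ± 0.48 (SE) with an edgeR adjusted p of 8.38e-06. In both genes T47D-TR replicate 3 was the lowest of its group but still above all T47D libraries. Without it, 11 of the 19 rose, 8 of them at least 2-fold, and the median was 0.81.

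Kinase anchors with other names gave 3 higher, 4 lower and 3 not called of 10 tested, with a median of -0.01. All tested genes gave 32.5% higher and 30.5% lower. RAB32, a small GTPase that anchors the kinase at mitochondria as AKAP1 does, fell from 23.3 ± 1.61 CPM (SD, n = 3) to 12.5 ± 1.29, log2 -0.89 with an edgeR adjusted p of 3.98e-06. EZR (ezrin), which links membranes to actin, fell from 412 ± 3.25 CPM to 261 ± 19.5, log2 -0.66. LRBA and NBEA, related BEACH-domain proteins of vesicle traffic, rose with log2 0.53 and 0.33.

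**Figure D5:**
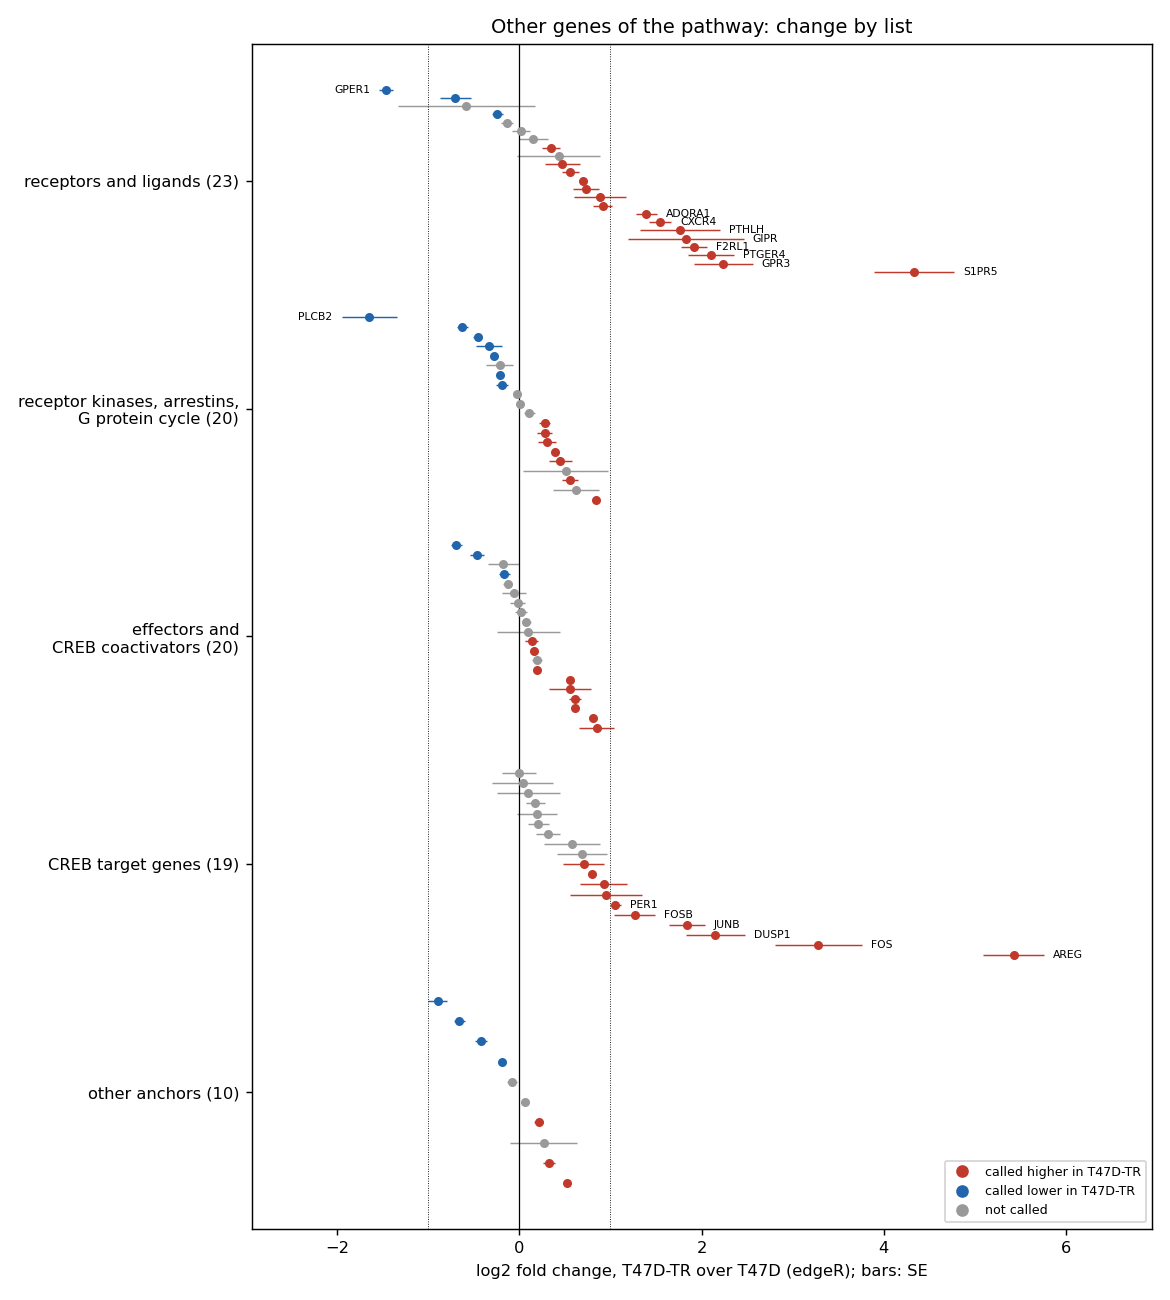
Log2 fold change of T47D-TR over T47D from edgeR for tested genes of 5 other pathway lists, with the number tested in brackets; points are genes, bars are standard errors, dotted lines mark a 2-fold change and called genes beyond them are named. No tested CREB target gene was called lower, AREG lies farthest right at 5.42, and the receptor list runs from GPER1 at -1.46 to S1PR5 at 4.33.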

How the data were processed

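Poly(A)-selected RNA of 6 libraries was sequenced after preparation with a directional kit, per the labels' protocols. The tools named are HISAT2 2.1.0 and DESeq, with GRCh38 as the build, per the submitters' processing notes. Which counter, strand setting and annotation were used is not stated there. The authors deposited raw read counts as whole numbers for each library. They also deposited group means as a normalized signal, a fold change as a ratio, a log2 fold change, and a p-value with its false discovery rate.

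Counts were scaled with TMM, genes kept with filterByExpr (minimum count 10, minimum total 15) and tested with edgeR 4.0.16 (glmQLFit, glmQLFTest, 2-sided) in R 4.3.3. CPM use TMM-adjusted library sizes. SEs come from log2 CPM with a prior count of 2, which narrows them for genes with few counts. Levels per kilobase use the longest principal transcript of GENCODE 29. The procedures were tested on simulated data. The alternatives used DESeq2 1.42.0, limma 3.58.1, other filters, a replicate block, and each library left out.

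The members and lists were chosen with earlier results of these data known. Named genes are, per role, called members of at least 2-fold, the largest called change in each direction, the most counted, and members at 0 in 1 group only, plus up to 2 at each end of each other list. ADCY7, CREB1, GNAI2, GNAZ, GNB5, PRKACA, PRKACB, PRKAR1A, PRKAR1B, RGS2 and the other members given a value were added after their values were seen. Replicate numbers did not pair the libraries: same-numbered deviations correlated at -0.01 to -0.02.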

Additional observations from a re-analysis of the deposited data

How the results depend on the processing

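Across the 13 alternatives, 26 to 33 members were called higher and 15 to 27 lower, against 31 and 21, and no call of a member changed direction. The lowest counts, 26 and 15, came with a filter at a mean of 5 CPM, which left 55 members to test. Voom with quantile normalization gave 28 higher and 27 lower, and it moved the log2 fold change of all genes by a median of -0.11. It called 7 further members, all with a negative fold change, and lost RGS2, PRKACB, GNG12 and RGS19. DESeq2's Wald test gave 29 and 20 and lost RGS2, PRKACB, GNAI3 and ADCY7. Leaving out 1 library gave 28 to 33 higher and 19 to 22 lower. With the replicate number as a block in edgeR, 31 members were higher and 20 lower. Of 571 values of the named genes under these settings, 566 kept their direction and side of the threshold and 5 lost the call: PDE2A in 1, RGS19 in 3 and NBEA in 1, which with voom had log2 0.19 and an adjusted p of 0.0825. By the authors' deposited table, 28 members were higher and 20 lower at a false discovery rate under 0.05; 46 of them were called in the same direction by edgeR here, and the other 2, GNA15 and RGS4, were not tested. Depth limits the 12 untested members and genes such as PKIB, PDE3B, PRKAR2B and GNG13, which had under 10 counts per library in 1 group.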
